A study of Homo sapiens with 24 samples.

Results

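The mitochondrial ribosomal protein genes described here are the genes of the count matrix whose name is MRPL or MRPS followed by a digit, with antisense names left out. The rule found 76 of the 18915 genes in the matrix. Of the 76, 49 encode proteins of the large subunit, among them MRPS18A and MRPS30, which structures of the ribosome place there in spite of their names, and 27 carry names of the small subunit. Homologues in bacterial ribosomes are known for 47 of the 76. MRP63, a large subunit protein with an older symbol, and the antisense gene MRPL23-AS1 lie outside the rule.

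The genes were followed in HepG2 cells, an established human hepatoma cell line, treated for 10 h in fresh complete medium. Of the 6 groups, 1 received the vehicle DMSO, 3 received a single drug (bortezomib at 50 nM, nelfinavir at 20 µM or ISRIB at 50 nM) and 2 received bortezomib together with either of the others at the same concentrations. Each group had 4 libraries, numbered as replicates in the labels and called biological replicates in the study's methods, from 1 cell line at 1 time point. Bortezomib inhibits the proteasome, nelfinavir is an HIV protease inhibitor that the study used to raise activity of the eIF2α–ATF4 stress pathway, and ISRIB lowers the output of that pathway by acting on the exchange factor eIF2B.

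Mitochondria hold their own ribosome, which translates the few proteins encoded in mitochondrial DNA, all of them subunits of the respiratory chain and ATP synthase. Its ribosomal RNAs come from mitochondrial DNA, whereas every ribosomal protein is encoded in the nucleus, made in the cytosol and imported. Hepatocytes are rich in mitochondria, and the promoters of these nuclear genes are known to be bound by factors such as GABP (of the ETS family), NRF1 and YY1.

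Read counts per library ran from 5154533 to 6943164 in 24 libraries. All 8 hepatocyte markers looked for, such as ALB and APOA1, were counted in every library, with a summed level of 11405 to 12663 CPM (read counts scaled to library size) in DMSO, 10698 to 11497 in ISRIB, 11056 to 12210 in nelfinavir and 8379 to 8918 in bortezomib, and of 5451 to 6934 and 7827 to 9191 when nelfinavir and ISRIB were added to bortezomib. The part of this difference in the results below was not tested. The 3 endothelial markers and PTPRC, CD3E and COL1A2 had no count in the matrix, and CD14, COL1A1 and COL3A1 reached at most 2.32 CPM. Mitochondrially encoded genes took 21.5% ± 1.32 of the counts in DMSO and 33.8% ± 1.20 in bortezomib (SD, n = 4 each). Levels are therefore given as CPM with library sizes scaled by TMM factors, and where another scaling ended a call described below, this is said beside it. The bortezomib library of replicate 4 stood apart from the other 3 in the summed level of the 76 genes, and values without it are given where it changes a result.

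The 76 genes together took 0.553% ± 0.0125 of all counts in DMSO, 0.575% ± 0.0292 in ISRIB and 0.503% ± 0.00355 in nelfinavir (SD, n = 4 each). With bortezomib alone the share was 0.345% ± 0.0177, with nelfinavir added 0.324% ± 0.0115, and with ISRIB added 0.311% ± 0.0101. Every library with bortezomib, with or without a second drug, lay below every library without it. On the TMM scale the gap was smaller, with summed levels of 4481, 4529, 4593 and 4710 CPM in DMSO and 3955, 3921, 3889 and 4378 CPM in bortezomib. The 4 bortezomib libraries stayed below the 4 DMSO libraries on this scale as well, with replicate 4 the closest. Fewer cells of a kind and less RNA per cell cannot be told apart in such bulk samples.

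**Figure D1:**
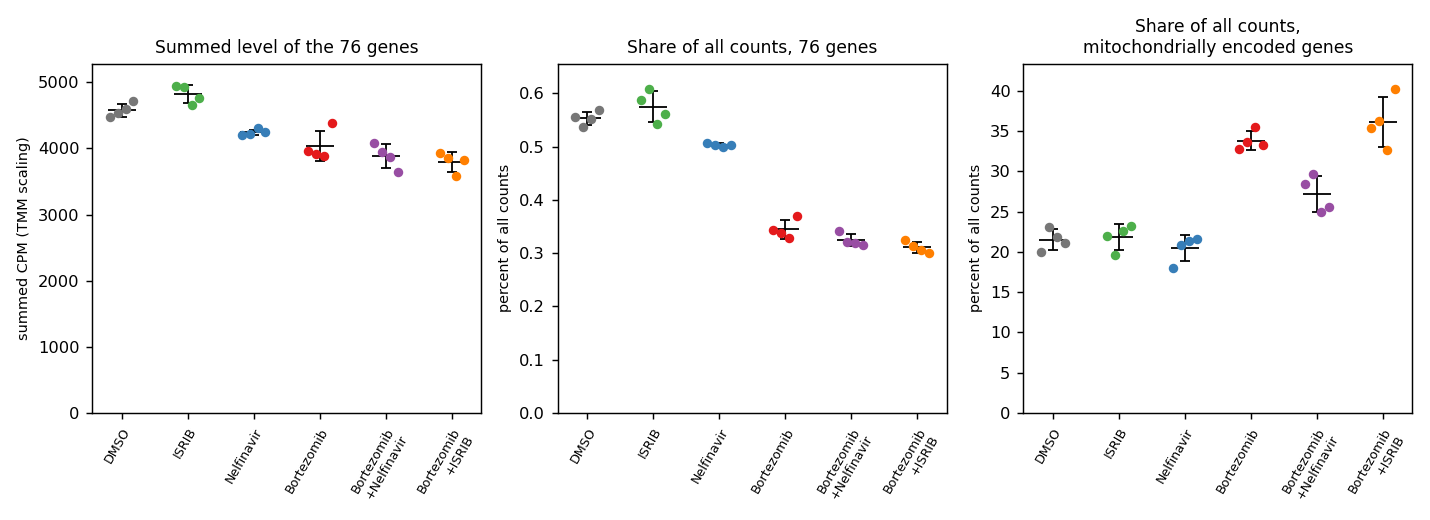
Summed level of the 76 genes in CPM with TMM scaling, their share of all counts and the percentage of reads on mitochondrial genes in the 24 libraries. Points are libraries, bars are means ± SD (n = 4). The summed level of the bortezomib libraries runs from 3889 to 4378 CPM, below the 4481 to 4710 CPM of DMSO, while mitochondrially encoded genes take more of the counts.

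In DMSO the members with the highest level were MRPL51, at 161 CPM, MRPS5, at 143 CPM, and MRPL33, at 135 CPM. Libraries were primed at the poly(A) tail, so that counts do not scale with transcript length and these levels count 3′ ends. The lowest 3 members were MRPL30, MRPL38 and MRPL53, with 20, 20 and 10 counts in all 24 libraries together, and they did not pass the filter on low counts. The other 73 members were tested among 12685 genes. MRPS24 passed with 138 counts in all and was the lowest tested member in DMSO, at 0.688 CPM. The last 500 bases of its transcript, and 499 bases of MRPL38, match at 100% identity a transcript of an overlapping gene that is not in the matrix. So do 478 bases of MRPS5, 477 of MRPL46, 464 of MRPS25, 381 of MRPL30, 289 of MRPS28, 196 of MRPL12 and 115 of MRPL2. Whether such overlap lowered counts was not tested. The last 500 bases of MRPL19, MRPL30 and MRPL53 overlap, in whole or in part, exons of another gene on the same strand, so their counts are uncertain. For 10 further members an exon of a gene on the opposite strand lies there, MRPL20, MRPL44, MRPL47, MRPS7, MRPS18C and MRPS25 among those named below, and reads cannot be told apart without a stated strand setting.

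Bortezomib was compared with DMSO to ask how these genes stood after proteasome inhibition alone. Most of the called members were lower, led by the small subunit gene MRPS26 and the large subunit genes MRPL17, MRPL41, MRPL42 and MRPL20. A smaller group was called higher, led by MRPS5 and MRPL18. Of the 73 members tested, 31 (42.5%) were lower and 9 (12.3%) higher at an adjusted p under 0.05 in the quasi-likelihood test of edgeR (Benjamini-Hochberg adjustment over all genes tested, here and below). Over all 12685 genes, 53.4% were called, 25.8% lower and 27.6% higher. The median log2 fold change of the members was -0.29, against 0.00 for all genes tested, and single values ran from -1.56 to 0.78.

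**Figure D2:**
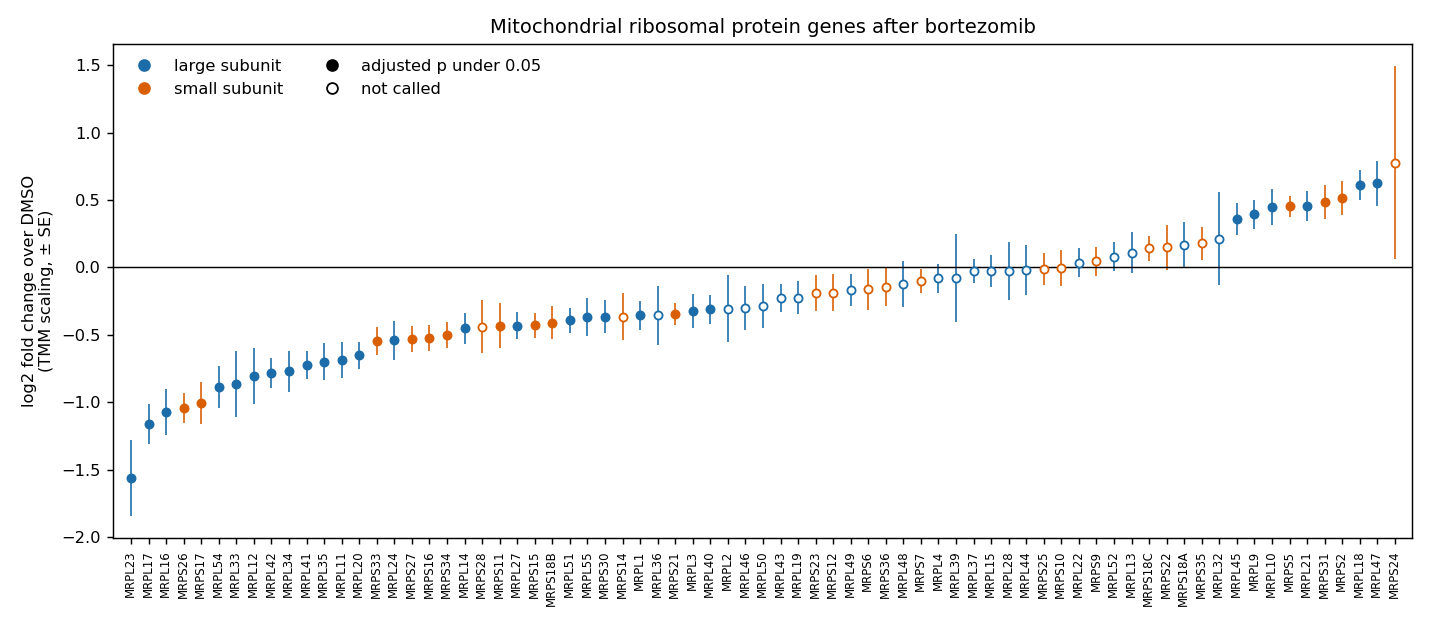
Log2 fold change of the 73 tested members in bortezomib over DMSO with TMM scaling, ordered by size. Points are estimates and bars their SE, colours give the subunit (MRPS36 drawn with the small subunit by its name) and filled points an adjusted p under 0.05. The values run from -1.56 for MRPL23 to 0.78 for MRPS24, which was not called, and the higher calls are lost when libraries are scaled by their totals alone.

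The count depended on the scaling. With library totals alone, which set the median of all genes at -0.49, 59 members were called lower and none higher. With totals that left out mitochondrially encoded genes, 49 were lower and 2 higher. The median of the members lay 0.29 below that of all genes under TMM factors and under both of these scalings. Changing the scaling moves all genes of a comparison by nearly the same amount, so this gap is no check on the scaling. The difference between the medians was -0.37 with no filter on low counts and -0.27 with replicate number added to the model. Without the bortezomib library of replicate 4 the counts were 36 lower and 6 higher.

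MRPS26, a small subunit protein without a bacterial counterpart (chr20:3026698-3028896 in GRCh37), stood at 116, 119, 106 and 118 CPM in DMSO and at 55.8, 48.8, 50.3 and 68 CPM in bortezomib. The groups lay far apart, and the level was near that of DMSO in ISRIB, at 121, 111, 125 and 112 CPM. Its log2 fold change was -1.04 ± 0.11, adjusted p = 9.51e-10 (here and below ± SE), the smallest p among the members. MRPL17, a homologue of the bacterial L17 protein at the peptide exit tunnel (chr11:6701616-6704571), stood at 49.7, 40.1, 43.5 and 46.6 CPM in DMSO and 18, 17.6, 16 and 28.7 CPM in bortezomib. Replicate 4 was the highest of the bortezomib libraries but lay below all of DMSO, and the log2 fold change was -1.16 ± 0.15, adjusted p = 5.40e-08.

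MRPL41, a large subunit protein of mitochondria that has also been linked to p53 and cell death, fell from 82.6, 86.2, 92.5 and 90.4 CPM to 48.7, 52.3, 46.2 and 65.4 CPM (-0.72 ± 0.10, adjusted p = 3.24e-07). MRPL42, likewise without a bacterial homologue (chr12:93861290-93909990), fell from 48.7, 47.7, 46.7 and 47.3 CPM to 29.9, 26.4, 25.5 and 28.7 CPM (-0.78 ± 0.11, adjusted p = 4.44e-07). Its 4 DMSO libraries differed among themselves by little against that gap. MRPL20, whose bacterial homologue binds ribosomal RNA early in assembly (chr1:1337289-1342673), fell from 96.8, 104, 111 and 110.5 CPM to 57.7, 67.5, 71.2 and 71.9 CPM (-0.65 ± 0.10, adjusted p = 1.50e-06). MRPS17, a homologue of bacterial S17, fell from 19.3, 22.6, 23.4 and 20.1 CPM to 12.8, 11.2, 10.3 and 7.99 CPM (-1.01 ± 0.15, adjusted p = 1.51e-06). These 6 were called lower under each of the 17 alternatives tried, with 8 of the alternatives leaving out 1 library each. The largest fall among the members was that of MRPL23, singled out after its values were seen, which had few counts (8 to 151 per library) at a mean level of 12.6 CPM in DMSO and 4.30 CPM in bortezomib (-1.56 ± 0.28, adjusted p = 1.70e-05).

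The promoters of the 4 among these 6 that hold one of the searched motifs are printed for their motif letters, from 120 bases before to 30 bases after the RefSeq start, in GRCh38.p14. Capitals mark NRF1 letters in MRPL17 (GCGCATGCG, found at -81, -80 and -43, the first pair overlapping on opposite strands), ETS letters in MRPS26 and MRPL20 (CCGGAAG or its reverse complement) and YY1 letters in MRPL42 (AAGATGGCG, within the transcript at +9). They lie at chr20:3045932-3046081 on the plus strand, chr11:6683311-6683460 on the minus strand, chr1:1407264-1407413 on the minus strand and chr12:93467394-93467543 on the plus strand.
MRPS26: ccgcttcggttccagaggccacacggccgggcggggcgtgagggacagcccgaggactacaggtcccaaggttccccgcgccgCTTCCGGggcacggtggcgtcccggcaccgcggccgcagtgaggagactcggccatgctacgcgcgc
MRPL17: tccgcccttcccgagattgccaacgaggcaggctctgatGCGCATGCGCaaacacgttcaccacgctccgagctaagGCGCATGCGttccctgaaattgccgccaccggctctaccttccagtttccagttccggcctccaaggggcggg
MRPL20: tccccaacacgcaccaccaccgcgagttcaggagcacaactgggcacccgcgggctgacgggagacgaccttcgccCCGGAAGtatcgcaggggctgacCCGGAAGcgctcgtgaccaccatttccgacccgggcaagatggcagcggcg
MRPL42: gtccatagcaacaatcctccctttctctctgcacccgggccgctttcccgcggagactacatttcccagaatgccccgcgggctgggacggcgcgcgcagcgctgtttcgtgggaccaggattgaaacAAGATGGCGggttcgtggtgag

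MRPS5, a homologue of bacterial S5, which sits where messenger RNA enters the small subunit (chr2:95751114-95787751), stood at 139.8, 136, 146 and 149.6 CPM in DMSO and at 212, 194, 185 and 191 CPM in bortezomib. All 4 bortezomib libraries lay above all of DMSO, and the log2 fold change of 0.45 ± 0.08, adjusted p = 6.62e-06 became -0.05 with library totals alone. MRPL18, whose bacterial homologue binds 5S ribosomal RNA (chr6:160210844-160219468), stood at 111, 94.4, 100.3 and 109.9 CPM in DMSO and at 156, 161, 152 and 165 CPM in bortezomib. The groups did not overlap (0.61 ± 0.11, adjusted p = 1.77e-05), and the value with library totals alone was 0.11, which was not called. The next 4 by p were MRPL21 (0.46 ± 0.11, adjusted p = 0.000702), MRPS2 (0.52 ± 0.13, adjusted p = 0.000759), MRPS31 (0.48 ± 0.13, adjusted p = 0.00167) and MRPL47 (0.62 ± 0.17, adjusted p = 0.00191). With library totals alone MRPL21 stood at -0.04 and MRPS31 at -0.015, MRPS2 at 0.02 and MRPL47 at 0.12, none of them called, nor were they with totals that left out mitochondrially encoded genes. MRPL21 and MRPS2 are homologues of bacterial L21 and S2 and MRPL47 of bacterial L29, whereas MRPS31 is particular to mitochondria.

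The promoters of MRPS31 and MRPL47 hold the ETS letters once each and are printed in the same window, at chr13:40771161-40771310 on the minus strand and chr3:179604609-179604758 on the minus strand, so that the ETS letters can be seen among members called higher as well. MRPL18 holds none of the motifs first searched. Its promoter, at chr6:159789692-159789841 on the plus strand, is printed because its levels moved most when nelfinavir was added to bortezomib, and the capitals mark GAANNTTC, an inverted pair of heat shock factor units, at +15. That motif was added after the values of MRPL18 had been seen.
MRPS31: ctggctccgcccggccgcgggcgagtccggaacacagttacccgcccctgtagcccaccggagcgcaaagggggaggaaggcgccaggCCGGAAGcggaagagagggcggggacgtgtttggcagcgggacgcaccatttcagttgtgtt
MRPL47: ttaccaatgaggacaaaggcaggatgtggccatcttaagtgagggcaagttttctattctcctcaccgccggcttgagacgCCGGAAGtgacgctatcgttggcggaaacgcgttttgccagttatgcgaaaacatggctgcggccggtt
MRPL18: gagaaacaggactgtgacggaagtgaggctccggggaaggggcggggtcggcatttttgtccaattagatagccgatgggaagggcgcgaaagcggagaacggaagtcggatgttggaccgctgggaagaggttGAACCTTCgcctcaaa

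A promoter of 300 bases (250 before to 50 after the start) was found in the RefSeq table for 67 of the 76 members, and each motif was searched on both strands. The ETS letters were in 28 of the 67 (41.8%), in 20.2% of the 8946 promoters of tested genes and in 10.7% of all 27305 promoters. The YY1 letters were in 13 of the 67 (19.4%), 4.26% and 1.85%. NRF1 was in 3 members (4.48%, against 3.88% and 2.10%), and its shorter form GCGCATG, which lies within it, in 7 (10.4%, against 7.92% and 4.67%). The C/EBP–ATF letters TGATGCAA, those of the sites bound by ATF4, were in no member promoter, against 0.436% and 0.923%, and the looser TGATGNAAN in 1. GAANNTTC was in 6 (8.96%, against 4.53% and 6.87%). Split by call in bortezomib, the ETS letters were in 13 of 29 members called lower, 2 of 7 called higher and 10 of 28 not called, and the YY1 letters in 3, 0 and 9.

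By subunit, 21 of 46 tested members of the large subunit were lower and 6 higher after bortezomib (median -0.30). Of the 27 with names of the small subunit, MRPS36 counted among them, 10 were lower and 3 higher (median -0.19). Members with a bacterial homologue had 20 lower and 7 higher of 46, and those without had 11 and 2 of 27. The stalk of the large subunit, which recruits translation factors, held both directions. MRPL12, the L7/L12 homologue that also binds the mitochondrial RNA polymerase, fell from 25.8, 21.3, 19.3 and 23.2 CPM to 11.8, 14.7, 12.9 and 11.9 CPM (-0.80 ± 0.21, adjusted p = 0.00153). MRPL11, at the base of the stalk, fell from 56.8, 60.2, 64.2 and 67 CPM to 32.9, 34.7, 35.9 and 50.8 CPM (-0.69 ± 0.13, adjusted p = 5.40e-05), with replicate 4 apart from the other bortezomib libraries. MRPL10, which anchors the L7/L12 proteins, stood at 35.9, 34.2, 30.8 and 31.9 CPM in DMSO and 52.6, 36.4, 35.7 and 57 CPM in bortezomib, where replicate 3 lay within the range of DMSO. Its call (0.45 ± 0.13, adjusted p = 0.00466) was lost without bortezomib replicate 1 or without replicate 4, the lowest value being 0.27, and with library totals alone it was -0.05. MRPL10 was also not called with totals that left out mitochondrially encoded genes (0.19, adjusted p = 0.212).

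Of the members with the highest level in DMSO, MRPL51 fell from 153, 163, 157 and 172 CPM to 107, 111, 118 and 155 CPM (-0.39 ± 0.09, adjusted p = 0.000691), with replicate 4 of bortezomib within the range of DMSO and the other 3 below it. MRPL33, related to bacterial L33, fell from 122, 130.2, 142 and 146 CPM to a mean of 74.3 CPM (-0.86 ± 0.25, adjusted p = 0.00356), with no overlap between the libraries. MRPL16 fell from 49.1, 46.4, 45.3 and 47.8 CPM to 23.5, 20.9, 21.1 and 24.2 CPM (-1.07 ± 0.17, adjusted p = 2.92e-06), again with no overlap.

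Other members with a known particular role were mixed. MRPS30, also known as a programmed cell death protein, was lower (-0.37 ± 0.12, adjusted p = 0.0117). Of the 3 genes related to bacterial S18, MRPS18B was lower (-0.41 ± 0.12, adjusted p = 0.00461), while MRPS18A (0.17 ± 0.17) and MRPS18C (0.14 ± 0.09) were not called. MRPS12, the decoding centre protein whose bacterial homologue is the site of streptomycin resistance, stood at 36.1, 34.7, 32.2 and 34.1 CPM in DMSO and 27.6, 26.4, 25.8 and 40.8 CPM in bortezomib and was not called (-0.19 ± 0.14). Replicate 4 lay above all DMSO libraries and the other 3 below them. MRPS36, now known as a subunit of the α-ketoglutarate dehydrogenase complex, was not called (-0.14 ± 0.15).

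**Figure D3:**
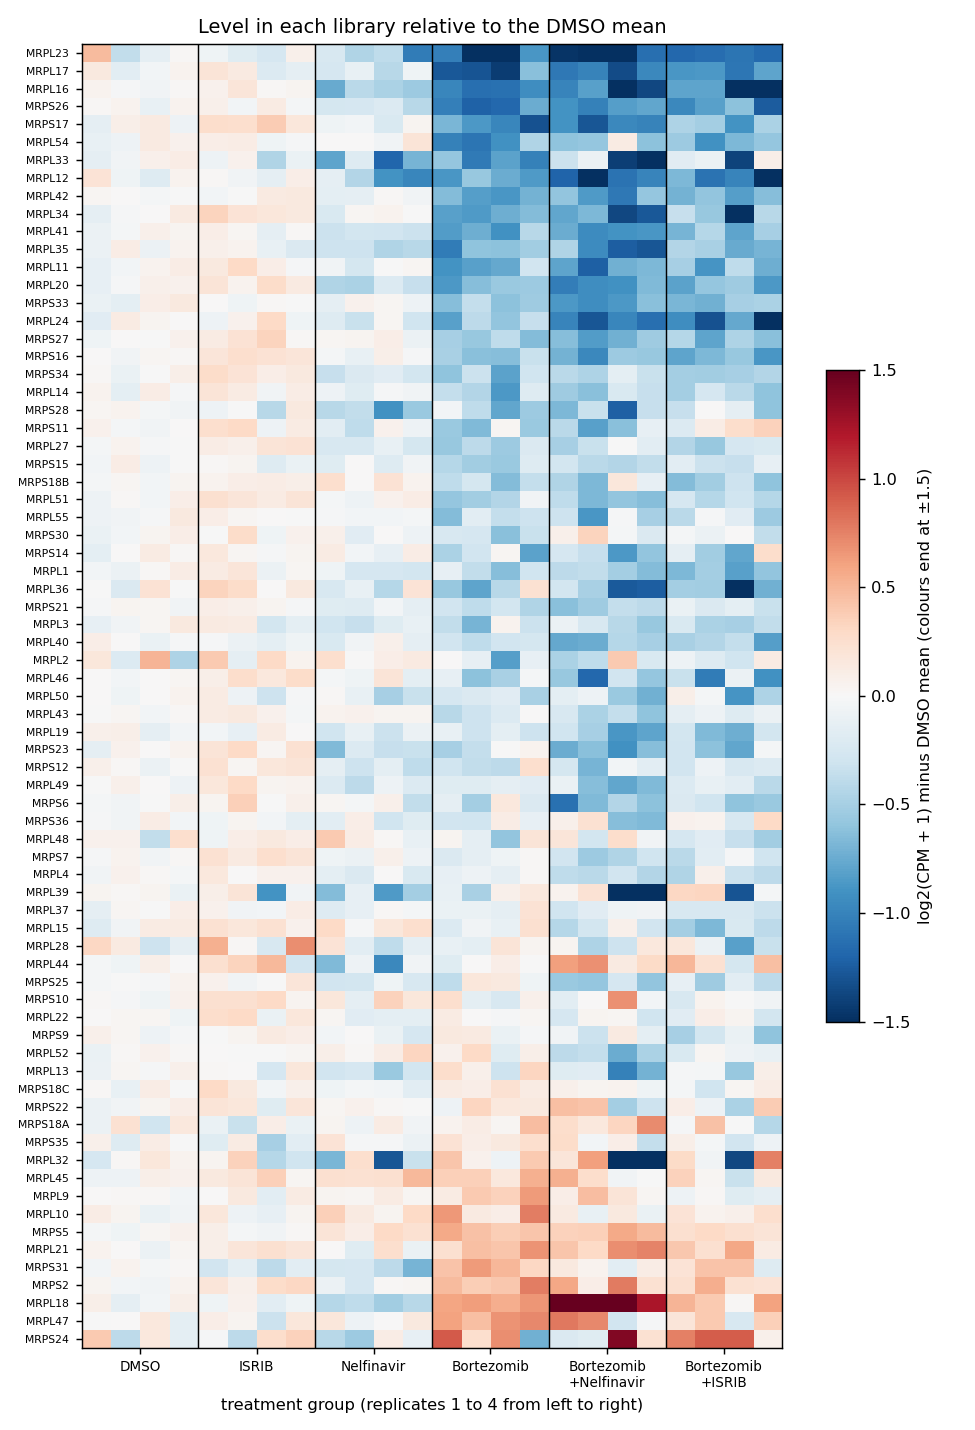
Level of the 73 tested members in each of the 24 libraries as log2(CPM + 1) minus the DMSO mean, with TMM scaling. Rows follow the fold change in bortezomib and colours end at ±1.5. MRPL23, MRPL17, MRPL16, MRPS26 and MRPS17 are blue in every library with bortezomib, and MRPL18 is darkest red in bortezomib with nelfinavir, at 243 to 376 CPM.

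Libraries without overlap between bortezomib and DMSO were found for 30 members lower and 8 higher, against 24.4% and 25.6% of all genes, 50.1% in all. Of 25 members with another protein-coding gene starting within 1000 bases on the opposite strand, 21 were tested together with that neighbour, in 20 distinct pairs because MRPL46 and MRPS11 are neighbours of each other. Both were called after bortezomib in 5 pairs. MRPL18 and TCP1 (a subunit of the TRiC chaperonin, 764 bases away, log2 fold change 1.10), MRPL21 and IGHMBP2 (31 bases, 2.51) and MRPL51 and NCAPD2 (94 bases, -0.44) moved the same way as the member. MRPL54 was lower beside APBA3 (990 bases, 1.36), and MRPS18B was lower beside PPP1R10 (772 bases, 0.62).

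Other genes of mitochondrial translation are given from lists by function, for the same comparison. Of 7 mitoribosomal proteins under other names, DAP3, a small subunit protein that binds GTP, rose from 51 to 142 CPM (1.48 ± 0.10, adjusted p = 3.31e-14), and 3 fell, among them MRP63 (-0.98) and CHCHD1 (-0.89). Of 23 assembly factors, 6 were higher, such as the GTPase MTG2 (35.7 CPM in DMSO, 73.8 CPM in bortezomib) and the pseudouridine synthase RPUSD4 (0.50), and 5 lower, such as MALSU1 (-0.82) and the ribosomal RNA methyltransferase TFB1M (-0.51). Of 13 translation factors 5 were higher, such as the release factor MTRF1L (0.70), and 2 lower, the initiation factors MTIF3 (-0.64) and MTIF2 (-0.38). Of 20 mitochondrial tRNA synthetase genes 5 were higher and 4 lower, led by the amidotransferase subunit QRSL1 (0.71) and TARS2 (-0.78). All list values depend on the scaling in the same way as those of the members.

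Of 22 genes for mitochondrial DNA and RNA maintenance, 8 were higher and 4 lower, among them the RNA-binding partners LRPPRC (0.70) and SLIRP (-0.50), which moved in opposite directions. Of 10 nuclear regulators, 3 were higher, such as NRF1 (1.11) and GABPB1 (0.84), and the coactivator PPARGC1A fell from 8.20 to 0.481 CPM (-4.07 ± 0.45, adjusted p = 2.49e-09). Of 10 chaperones and proteases 7 were higher, led by the protease LONP1 (1.31) and the chaperonin HSPD1 (1.19). Of the 13 mitochondrially encoded mRNAs 12 were higher with TMM factors, the median log2 fold change being 1.18, and with library totals alone the median was 0.69. Of 83 tested cytosolic ribosomal protein genes 45 were higher and 5 lower (median 0.26), but with library totals alone 4 were higher and 47 lower (median -0.24). The members' median was negative under each scaling in the plot of list medians.

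**Figure D4:**
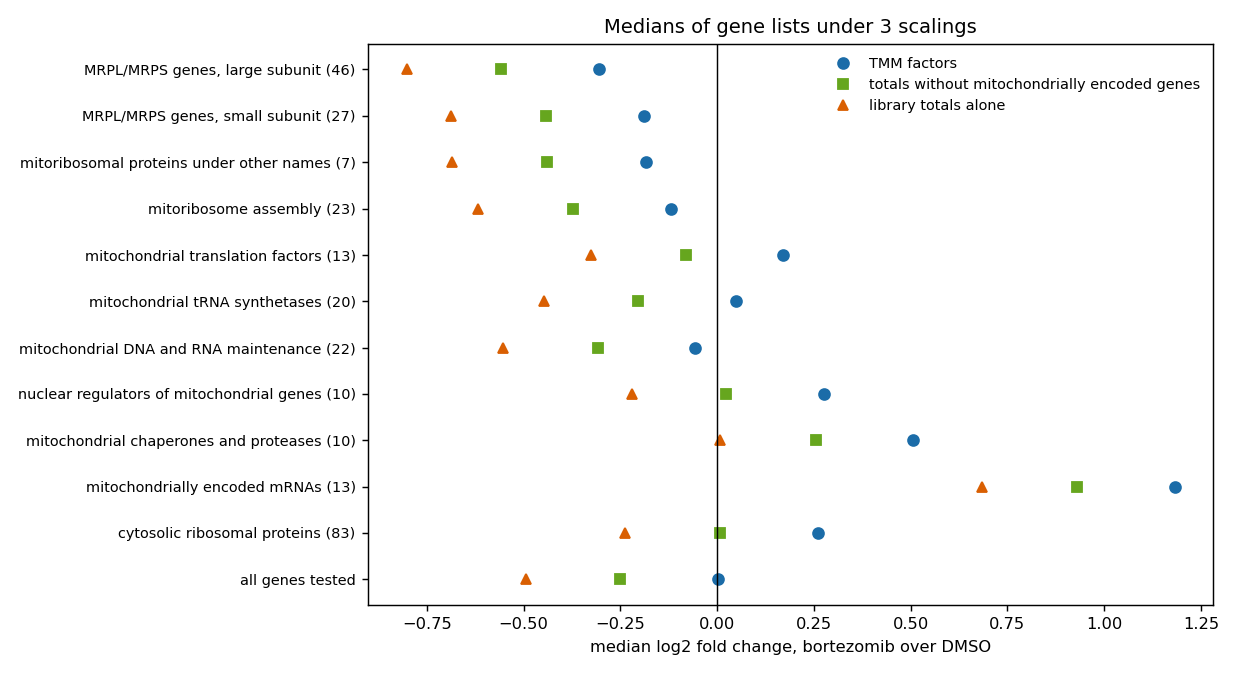
Median log2 fold change in bortezomib over DMSO of each gene list under 3 scalings, with the number of genes tested in brackets. All medians shift together with the scaling, and that of all genes tested moves from 0.00 with TMM factors to -0.49 with library totals alone. The members' subunits lie to the left of all genes tested under each, and the cytosolic ribosomal proteins to the right. As the shift is nearly the same for every list, the 3 scalings are not separate checks of this order.

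Nelfinavir was compared with DMSO as the single treatment meant to raise the stress pathway. The members called were mostly lower, led by MRPL18, MRPL20 and MRPL16. Of 73 members 10 (13.7%) were lower and 1 higher (1.37%), against 8.84% lower and 10.4% higher of all genes, 19.2% in all. The median log2 fold change was -0.09, against 0.01 for all genes. Libraries did not overlap for 17 members lower and 4 higher, against 14% and 15.6% of all genes, 29.6% in all. The lower calls rested on few libraries, and 3 to 6 were left without DMSO replicate 1, 3 or 4 or nelfinavir replicate 1, 3 or 4. A model of these groups only called 21 lower and 2 higher.

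MRPL18, higher in bortezomib, was lower in nelfinavir, at 77, 79.3, 72.1 and 77.6 CPM, with all 4 libraries below DMSO (-0.44 ± 0.11, adjusted p = 0.00353). MRPL20 stood at 76.5, 75.3, 90.9 and 82.9 CPM (-0.37 ± 0.10, adjusted p = 0.00532), also below all of DMSO. MRPL16, a homologue of the bacterial protein at the peptidyl transferase centre, stood at 27.5, 35.3, 33.7 and 31.9 CPM against 49.1, 46.4, 45.3 and 47.8 CPM in DMSO (-0.56 ± 0.16, adjusted p = 0.0127). The call for MRPL16 was lost without nelfinavir replicate 1 (adjusted p = 0.0568). MRPS31 (-0.40 ± 0.13, adjusted p = 0.0213) lost its call without nelfinavir replicate 4 (adjusted p = 0.119). MRPS28, a protein related to bacterial S1, with 12.8, 13.3, 8.82 and 11.5 CPM in nelfinavir and 17.9, 18.1, 17.1 and 16.8 CPM in DMSO, was lower (-0.59 ± 0.19, adjusted p = 0.025) but was not called without DMSO replicate 1 or 2 or nelfinavir replicate 3 or 4, and MRPL41 (-0.30 ± 0.10, adjusted p = 0.0259) not without DMSO replicate 3 or 4 or nelfinavir replicate 1, 3 or 4 (adjusted p up to 0.117 and 0.0819).

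MRPS5 was the member called higher, at 163, 153, 176 and 167 CPM, above all of DMSO. Its p lay at the threshold (0.21 ± 0.08, adjusted p = 0.0499), and in edgeR it was not called under any other scaling, nor when a DMSO library or nelfinavir replicate 1, 3 or 4 was left out (log2 fold change 0.17 to 0.23). MRPL12, the stalk protein, was lower again (-0.61 ± 0.20, adjusted p = 0.0261), with replicates 3 and 4 at 11.5 and 10.8 CPM below replicates 1 and 2 at 20.2 and 16.1 CPM. It was not called without DMSO replicate 1 or 4 or nelfinavir replicate 3 or 4 (adjusted p up to 0.126). The 2 lists with the largest share of calls in nelfinavir were the chaperones and proteases, with 2 higher and 2 lower of 10, among them LONP1 (0.82) and HSPE1 (-0.38), and the cytosolic ribosomal proteins, with 38 higher and 2 lower of 83. TFAM, which packages mitochondrial DNA and is needed to transcribe it, was lower (-0.52 ± 0.10, adjusted p = 0.000197).

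ISRIB alone was compared with DMSO as a control for the co-treatment. No member was called by edgeR, and no gene of the 12685 was (0%), while DESeq2, which gave an adjusted p to 4078 of these genes, called 1 of them higher and 18 lower, and none of the 52 members among them. Members with an unadjusted p under 0.05 numbered 2 of 73, and 702 of all genes had one. MRPS7, a homologue of bacterial S7, had the smallest p of the members, with 127, 119, 129 and 124 CPM in ISRIB and 107, 113, 105 and 109 CPM in DMSO. All 4 ISRIB libraries lay above DMSO, and the log2 difference was 0.20 ± 0.09, adjusted p = 0.819. Libraries did not overlap for 11 members higher and 1 lower, against 3.5% and 4.52% of all genes, 8.02% in all, and the members' log2 fold changes ran from -0.25 to 0.30 with a median of 0.07.

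Nelfinavir was added to bortezomib to drive the stress pathway further, and MRPL18 stood out by its rise. Of 73 members 3 (4.11%) were higher and 14 (19.2%) lower than in bortezomib alone, against 15.6% higher and 13.4% lower of all genes, 28.9% in all. The median was -0.15, against -0.02 for all genes. Libraries did not overlap for 3 members higher and 9 lower, against 12.4% and 9.11% of all genes, 21.6% in all. The number of lower calls rested on single libraries, with 7 to 9 left when any of the 8 except replicate 1 of the co-treatment was taken out. With totals that left out mitochondrially encoded genes 34 were lower and 1 higher, and a model of these groups only called 6 lower.

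MRPL18 stood at 345, 376, 298 and 243 CPM with both drugs, against 156, 161, 152 and 165 CPM with bortezomib and 77, 79.3, 72.1 and 77.6 CPM with nelfinavir alone. Each of the 4 libraries lay well above every library of the other 5 groups, although they spread more among themselves than those of bortezomib. The log2 fold change over bortezomib was 0.99 ± 0.11, adjusted p = 1.79e-08, and it was called under each of 17 alternatives (0.82 to 1.13). The interaction, which is the effect of nelfinavir with bortezomib minus its effect without, was 1.43 ± 0.15, adjusted p = 1.85e-08, the largest among the members and called under each of 25 alternatives (1.31 to 1.58). TCP1, which starts 764 bases from MRPL18, had a log2 fold change of 0.24 over bortezomib (adjusted p = 0.0353).

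**Figure D5:**
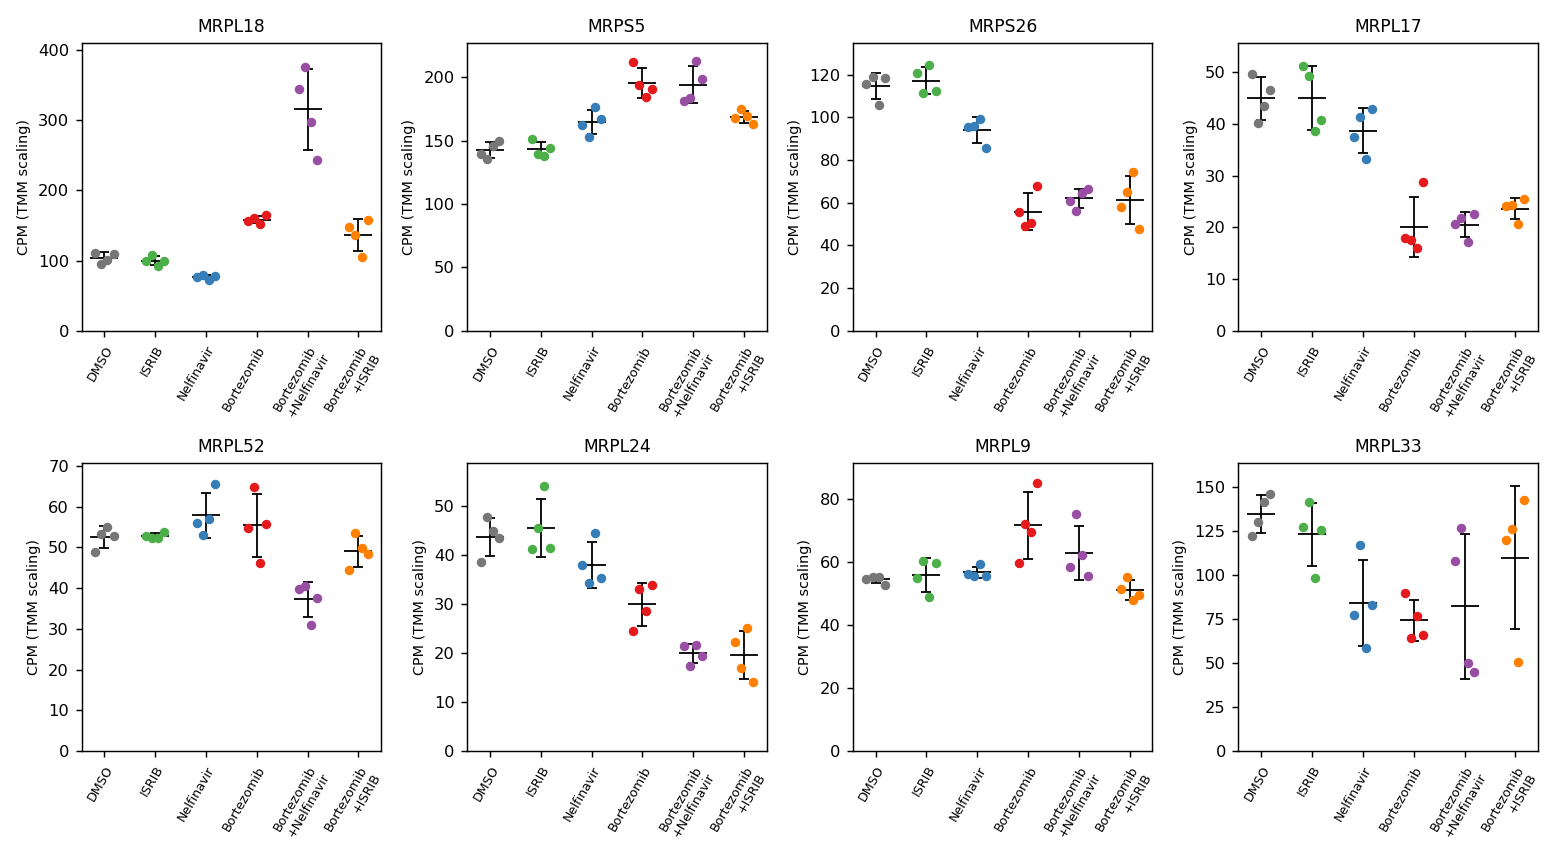
Levels of 8 members in CPM with TMM scaling in the 6 groups. Points are libraries and bars means ± SD (n = 4), and each vertical axis starts at 0. MRPL18 reaches 243 to 376 CPM in bortezomib with nelfinavir, MRPL52 lies lowest there, MRPS26 and MRPL17 are low in all 3 groups with bortezomib, and MRPL33 spreads widely in both co-treatments.

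The other members called higher were MRPS30 (0.42 ± 0.12, adjusted p = 0.0108), at 50.3, 60.6, 46.7 and 40.9 CPM against 40.2, 39.9, 30.4 and 37.6 CPM, and MRPL54, a large subunit protein of mitochondria (0.49 ± 0.16, adjusted p = 0.0222). MRPL54 rested on replicate 3, at 37.5 CPM against 21.9 to 22.7 CPM in the other 3, and was not called without it or without bortezomib replicate 2 (adjusted p up to 0.18, lowest log2 fold change 0.28). Neither was called with totals that left out mitochondrially encoded genes, nor in a model of these groups only (adjusted p = 0.0664 for MRPS30 and 0.13 for MRPL54).

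Among the members called lower MRPL52, a large subunit protein of mitochondria, had the smallest p. It stood at 39.7, 40.6, 31 and 37.5 CPM with both drugs, at 54.7, 64.9, 46.2 and 55.7 CPM with bortezomib and at 55.9, 53, 57 and 65.7 CPM with nelfinavir alone. The libraries with both drugs lay below every library of the other 5 groups. The log2 difference from bortezomib was -0.58 ± 0.11, adjusted p = 0.000172, and the interaction was -0.72 ± 0.15, adjusted p = 0.000878. Its promoter, printed at chr14:22829767-22829916 on the plus strand, holds YY1 letters at -98 and -64 and the ETS letters on the reverse strand at -5, in capitals.
MRPL52: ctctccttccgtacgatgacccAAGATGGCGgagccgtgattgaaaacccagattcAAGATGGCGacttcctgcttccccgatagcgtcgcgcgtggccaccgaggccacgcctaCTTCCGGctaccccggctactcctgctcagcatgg

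MRPS25 (-0.49 ± 0.12, adjusted p = 0.00276) and MRPS23 (-0.55 ± 0.14, adjusted p = 0.00303), both small subunit proteins of mitochondria, were lower. MRPL24, a homologue of an early assembly protein of the bacterial large subunit, was lower (-0.59 ± 0.15, adjusted p = 0.00412), with 21.3, 17.2, 21.6 and 19.3 CPM against 24.4, 33, 28.5 and 33.9 CPM. MRPL13, a homologue of bacterial L13, was lower (-0.60 ± 0.16, adjusted p = 0.00436), its replicates 3 and 4 being the lowest at 30.6 and 38.3 CPM. MRPS6, a homologue of bacterial S6, was lower as well (-0.55 ± 0.16, adjusted p = 0.00906), but not without bortezomib replicate 3 or replicate 1 of the co-treatment (adjusted p up to 0.0904). A model of these groups only did not call MRPS6 either (adjusted p = 0.0522). Of the other lists, the cytosolic ribosomal proteins had 31 higher and none lower of 83 (5 and 3 with totals without mitochondrially encoded genes, where the median turned to -0.01), and the translation factors 1 higher and 6 lower of 13, led by the formyltransferase MTFMT (-0.92 ± 0.19, adjusted p = 0.000478). HSPD1 (0.99), HSPE1 (0.69) and RPUSD4 (0.72) were higher, and DAP3 (-0.68) and MRP63 (-0.61) lower.

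Further interactions of nelfinavir with bortezomib brought the members called to 5 higher (6.85%) and 2 lower (2.74%), against 9.74% and 10% of all genes, 19.7% in all. With totals that left out mitochondrially encoded genes 2 were higher and 7 lower, and with 1 library left out 2 to 7 were higher and 1 to 3 lower. MRPL10 was lower (-0.64 ± 0.19, adjusted p = 0.0139), but not without bortezomib replicate 1 or 4 (adjusted p up to 0.0784). MRPL44, an RNase III family protein, was higher (0.89 ± 0.26, adjusted p = 0.0146), with 17.7, 27, 14.1 and 27.4 CPM in nelfinavir, 25, 28.7, 30.6 and 28.3 CPM in bortezomib and 44.4, 46.5, 31.4 and 35.1 CPM in both. MRPS34 (0.42 ± 0.14, adjusted p = 0.0267), MRPL27 (0.41 ± 0.14, adjusted p = 0.0384) and MRPS26 (0.44 ± 0.15, adjusted p = 0.0404) were higher too, and each lost its call without some single libraries. For MRPS34, a small subunit protein of mitochondria, these were DMSO replicate 4, nelfinavir 1, bortezomib 3 and co-treatment 3 (adjusted p up to 0.0592). For MRPL27, a homologue of bacterial L27, they were every DMSO replicate, nelfinavir 1, 2 and 4, bortezomib 1 and 3 and co-treatment 3 (up to 0.0789). For MRPS26, the interaction of which was singled out after its values were seen, they were DMSO 1, 2 and 4, nelfinavir 1, 2 and 4, bortezomib 2 and 3 and co-treatment 4 (up to 0.0895). With any 1 library left out, the values of these 3 genes ran from 0.36 to 0.60. None of the 3 was called with totals that left out mitochondrially encoded genes (0.29 for MRPS34, 0.28 for MRPL27 and 0.31 for MRPS26), nor was MRPL27 with upper-quartile factors (adjusted p = 0.0503) or MRPS26 with library totals alone (adjusted p = 0.0592).

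ISRIB was added to bortezomib to lower the stress pathway. Few members were called, 4 lower (5.48%) and 1 higher (1.37%) of 73, against 5.34% lower and 6.89% higher of all genes, 12.2% in all. With library totals alone 9 were lower, and a model of these groups only called 1 lower and none higher. The median was -0.10, against 0.01 for all genes, and libraries did not overlap for 6 members lower and none higher, against 5.99% and 6.49%, 12.5% in all. MRPL9, a homologue of bacterial L9, led with 51.6, 55.3, 48 and 49.6 CPM against 59.6, 72.1, 69.7 and 85.3 CPM in bortezomib and 54.7, 55.4, 55.3 and 52.8 CPM in DMSO. Its level with both drugs lay near DMSO and below every bortezomib library (-0.49 ± 0.11, adjusted p = 0.00239), and it was called under each of 17 alternatives.

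MRPL24 was lower (-0.61 ± 0.16, adjusted p = 0.00787), at 22.3, 17, 25 and 14.1 CPM, much as when nelfinavir was added, but was not called in a model of these groups only (adjusted p = 0.0516), and nor were MRPS9, MRPL15 and MRPS11. MRPS9, related to bacterial S9 (-0.40 ± 0.11, adjusted p = 0.0126) was not called without bortezomib replicate 2 or replicate 1 or 4 of the co-treatment, and MRPL15, related to bacterial L15 (-0.43 ± 0.13, adjusted p = 0.0193), not without bortezomib replicate 4 or replicate 1 or 2 of the co-treatment (adjusted p up to 0.071 and 0.109). MRPS11, a homologue of bacterial S11 and the member called higher, stood at 19.6, 24.7, 27.6 and 29.1 CPM against 15.2, 14, 23.2 and 15.1 CPM (0.58 ± 0.17, adjusted p = 0.0226). Bortezomib replicate 3 lay among the co-treated libraries, and the call was lost without bortezomib replicate 1, 2 or 4 or replicate 3 or 4 of the co-treatment (adjusted p up to 0.0808). MRPL18 was not called (-0.21 ± 0.11). The interaction of ISRIB with bortezomib was called for MRPL15 (-0.60 ± 0.17, adjusted p = 0.0343) and MRPL9 (-0.52 ± 0.15, adjusted p = 0.038), 2 lower (2.74%) and none higher, against 1.89% and 2.92% of all genes, 4.82% in all. DESeq2 and a model of these groups only each called 5 lower, and with 1 library left out 0 to 4 were lower. The call for MRPL15 was lost without DMSO replicate 1 or 2, ISRIB 1, 2 or 3, bortezomib 2 or 4 or co-treatment 1 or 2 (adjusted p up to 0.112, log2 values -0.61 to -0.50). That for MRPL9 was lost without any DMSO replicate, ISRIB 1, 2 or 4, bortezomib 2 or 4 or co-treatment 1, 3 or 4 (adjusted p up to 0.104, log2 values -0.54 to -0.43), and also with no filter on low counts (adjusted p = 0.0652).

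Of the lists, DAP3 (-0.37) and ICT1 (-0.69), a ribosomal protein that rescues stalled ribosomes, were lower when ISRIB was added, as were MTFMT (-0.93) and MTIF2 (-0.47), and HSPE1 was higher (0.52). No mitochondrially encoded mRNA was called there. Both co-treatments were set against the same bortezomib libraries, and MRPL24, for example, was lower in each.

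The co-treatments were also compared directly, which asks where driving and lowering the stress pathway under bortezomib part. MRPL18 again had the largest difference, 1.21 ± 0.11, adjusted p = 4.10e-10, with 147, 137, 105 and 158 CPM when ISRIB was added against the 243 to 376 CPM when nelfinavir was, and was called under each of 17 alternatives. Of 73 members 2 (2.74%) were higher and 5 (6.85%) lower with nelfinavir than with ISRIB, against 13.2% and 11.2% of all genes, 24.4% in all. With totals that left out mitochondrially encoded genes 1 was higher and 23 lower, and a model of these groups only called 1 higher and 1 lower. Leaving out 1 library gave 1 to 6 higher and 1 to 7 lower, and each of the 8 libraries moved at least 1 of the counts by over 1.5 times. MRPL52 was lower (-0.40 ± 0.11, adjusted p = 0.00807), but not without replicate 3 of the nelfinavir or replicate 2 of the ISRIB co-treatment (adjusted p up to 0.0713). MRPS11 was lower (-0.64 ± 0.17, adjusted p = 0.006). Libraries did not overlap for 3 members higher and 3 lower, against 10.6% and 7.62% of all genes, 18.3% in all. MRPL9 was higher (0.30 ± 0.11, adjusted p = 0.0443), but not without replicate 2 of the nelfinavir or replicate 3 or 4 of the ISRIB co-treatment (adjusted p up to 0.1), nor with upper-quartile factors (0.26, adjusted p = 0.0769) or totals that left out mitochondrially encoded genes (0.14, adjusted p = 0.375). MRPS21, related to bacterial S21, was lower (-0.27 ± 0.08, adjusted p = 0.0148), but not without replicate 1 or 2 with nelfinavir or 1, 2 or 3 with ISRIB (up to 0.172). MRPS17 (-0.48 ± 0.17, adjusted p = 0.0301) kept its call when replicate 3 with ISRIB was left out and lost it without any of the other 7 libraries (adjusted p up to 0.147), with log2 values of -0.48 to -0.35. MRPL43, a protein of the mitochondrial large subunit (-0.30 ± 0.11, adjusted p = 0.0387), kept its call without replicate 1 with nelfinavir and lost it without any of the others (up to 0.218), with log2 values of -0.30 to -0.20. Its call was also lost with median-of-ratios factors (-0.28, adjusted p = 0.0544) and library totals alone (-0.27, adjusted p = 0.0669). MRPL52, MRPS21, MRPS17 and MRPL43 were not called with no filter on low counts, and neither these 4 nor MRPL9 in a model of these groups only.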

How the data were processed

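RNA of HepG2 cells had been made into QuantSeq FWD libraries, which tag 3′ ends, and read from a single end over 80 bp. The submitters' processing notes name cutadapt 2.8, STAR and the build hg19 (GRCh37). The authors deposited raw read counts without normalization, for 18915 genes and 24 libraries. For the counter, how it treated strand, and molecular identifiers: not given in the sources used here. Depth was 5154533 to 6943164 counts, and the error of a single count covers sampling only.

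In R 4.3.3, genes that passed filterByExpr of edgeR 4.0.16 (at least 5 counts, and 25 in total) were fitted in 1 quasi-likelihood model of the 6 groups with TMM scaling. The adjustment (Benjamini-Hochberg, threshold 0.05) ran over 12685 genes. Single drugs were compared with DMSO, co-treatments with bortezomib and with each other, and 2 interactions were tested, 8 comparisons in all. Alternatives were DESeq2 (1.42.0, the study's own test), other scalings and filters, a model of the compared groups only, a replicate block and leaving out each library. As nothing further is said of the replicates, p-values measure the spread between these libraries.

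The members and lists were chosen with earlier results of these data known. Named members were up to 6 per direction with the smallest p among those called, up to 6 called in an interaction, the smallest p in ISRIB, the highest and lowest 3 in DMSO, those not tested and 10 with known particular roles. Of each list at most 2 genes per direction were named. Promoters came from RefSeq tables (GRCh38.p14) and gene positions from a GRCh37 annotation, which holds 74 of the 76 members. The motif GAANNTTC was added after the values were seen. Transcript ends were aligned with BLAST 2.17.0 (80 bases or more at 97% identity or more), and apart from overlapping genes 1 member, MRPL36, had a near copy, which is not counted in the matrix. Replicates differed by more than sampling noise (lowest chi-square per degree of freedom 2.14). The highest value was 22.0, between replicates 3 and 4 of bortezomib with ISRIB. In bortezomib with nelfinavir it was 3.99 between replicates 1 and 2 and 20.3 between replicates 2 and 3. Tables and figures were made with Python 3.11.15, pandas 2.3.3 and matplotlib 3.10.9.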

Additional observations from a re-analysis of the deposited data

Results flagged for a closer look

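The summed level of the members in bortezomib replicate 4, at 4378 CPM, lay apart from the other 3 bortezomib libraries at 3889 to 3955 CPM, a gap of 0.865 of the whole range, past Dixon's limit for 4 values. The same library was apart for MRPL11 (50.8 CPM, others 32.9 to 35.9), MRPL17 (28.7 CPM, others 16 to 18), MRPS12 (40.8 CPM, others 25.8 to 27.6) and MRPS18A (27.9 CPM, others 20.3 to 21.5), the high value in each. Its percentage of reads on mitochondrial genes, 33.2%, lay within the range of the other 3 (32.8% to 35.5%), and its summed level of cytosolic ribosomal protein genes was 96805 CPM against 83849 to 84378 CPM. Without that library 36 members were called lower and 6 higher after bortezomib, against 31 and 9 with it.

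Other single libraries stood apart from the other 3 of their group. In nelfinavir replicate 3 MRPL13 was low at 42.6 CPM and MRPS7 high at 114 CPM. In replicate 3 of bortezomib with nelfinavir MRPL54 (37.5 CPM) and MRPS25 (46.7 CPM) were high. In bortezomib with ISRIB MRPS17 was low in replicate 3 (10.9 CPM) and MRPS2 high in replicate 2 (64.5 CPM), and MRPS11 was high in bortezomib replicate 3 (23.2 CPM). These are 12 of 258 groups of 4 libraries checked, and chance alone sets apart about 1 in 20.

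The effect of nelfinavir differed with and without bortezomib, by the interaction term, for MRPL18 (log2 difference 1.43), MRPL44 (0.89), MRPS26 (0.44), MRPS34 (0.42) and MRPL27 (0.41), and in the other direction for MRPL52 (-0.72) and MRPL10 (-0.64). The effect of ISRIB differed for MRPL15 (-0.60) and MRPL9 (-0.52). Of these, MRPL18, MRPL44 and MRPL52 kept their call under each of 25 alternatives, and each of the other calls was lost under some.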

How the results depend on the processing

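Of 70 calls for named members 32 were kept under every alternative and 38 were lost under at least 1. With library totals alone, bortezomib against DMSO gave 0 members higher and 59 lower, ISRIB added to bortezomib 9 lower, and MRPL10 (-0.048), MRPL21 (-0.0437), MRPL9 (-0.105), MRPS31 (-0.015) and MRPS5 (-0.045) changed sign, with the all-gene median at -0.49. With totals without mitochondrially encoded genes the counts higher and lower were 2 and 49 (bortezomib), 1 and 34 (nelfinavir added), 1 and 23 (co-treatments compared), and 2 and 7 (nelfinavir interaction). Nelfinavir alone had 0 higher with median-of-ratios factors, upper-quartile factors, both kinds of totals and the replicate block. Upper-quartile factors gave 1 higher and 8 lower between the co-treatments, and DESeq2 gave 4 higher there and 5 lower for the ISRIB interaction. No filter gave 2 higher with ISRIB added and 1 higher for its interaction. A model of the groups compared only gave 2 higher and 21 lower (nelfinavir), 6 lower (nelfinavir added), 0 higher and 1 lower (ISRIB added), 1 and 1 (co-treatments) and 5 lower (ISRIB interaction). The cause of these moves was not tested where it is not stated.

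The summed level relative to DMSO was -0.18 (log2) in bortezomib, -0.27 with ISRIB added and -0.24 with nelfinavir added. It was -0.68, -0.83 and -0.77 with totals alone and -0.44, -0.53 and -0.66 with totals without mitochondrially encoded genes, which gave -0.15 in nelfinavir.

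Leaving out 1 library gave, higher and lower, 6 to 9 and 28 to 36 (bortezomib), 0 to 1 and 3 to 9 (nelfinavir), 0 and 0 (ISRIB), 2 to 4 and 7 to 11 (nelfinavir added), 0 to 1 and 3 to 5 (ISRIB added), 1 to 6 and 1 to 7 (co-treatments), 2 to 7 and 1 to 3 (nelfinavir interaction) and 0 to 1 and 0 to 4 (ISRIB interaction). The summed level ranged from -0.22 to -0.16 in bortezomib, -0.29 to -0.24 with ISRIB added, -0.26 to -0.21 with nelfinavir added, 0.06 to 0.09 in ISRIB and -0.12 to -0.10 in nelfinavir.

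The labels do not say that replicate numbers mark shared cultures. Deviations from group means correlated above 0.1 in 13 of 60 same-numbered pairs and in 12 of 180 others, and 11 of 24 libraries correlated best with their own number. With the replicate block the counts were 9 higher and 32 lower in bortezomib, 0 and 11 in nelfinavir, 3 and 14 with nelfinavir added and 1 and 4 with ISRIB added, and of the named calls it ended that of MRPS5 in nelfinavir. Low counts limit MRPS24 (0 to 17 counts per library) and the members not tested, for which no change could be detected. The 3′ ends of these genes overlap other genes, and the parts of depth and overlap in the low counts were not tested.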

Other observations

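MRPL32, MRPL33 and MRPL39, 3 large subunit genes singled out after their values were seen, were low in the same libraries of the co-treatments. In bortezomib with nelfinavir MRPL32 stood at 45.4, 62, 13.4 and 13.5 CPM, MRPL33 at 108, 127, 49.9 and 44.8 CPM and MRPL39 at 27.7, 31.1, 6.28 and 6.57 CPM. In bortezomib with ISRIB they stood at 49.2, 38.5, 14.9 and 68.6 CPM, 119.9, 126, 50.7 and 143 CPM and 33.4, 33.7, 10.3 and 26.1 CPM. Replicates 3 and 4 with nelfinavir and replicate 3 with ISRIB held the low values of each. Replicate 3 was also their lowest library in nelfinavir alone (15.8, 58.5 and 14.4 CPM) and in ISRIB alone (29.6, 98.5 and 13.8 CPM). MRPL34 (78, 83.5, 51.4 and 55 CPM with nelfinavir added) and MRPL36 (24.3, 20.9, 11.8 and 12 CPM) were low in the same co-treatment libraries. In replicate 3 with ISRIB added they stood at 46.5 and 8.42 CPM. MRPL47 (77.7, 74.2, 36.3 and 44.1 CPM) and MRPS36 (76.1, 84.9, 46 and 45.4 CPM) were also lower in replicates 3 and 4 with nelfinavir. The percentage of reads on mitochondrial genes was 28.5%, 29.6%, 24.9% and 25.6% in the 4 libraries with nelfinavir, and 35.4%, 36.3%, 32.6% and 40.2% in those with ISRIB, and its part was not tested. None of MRPL32, MRPL33 and MRPL39 was called in either co-treatment against bortezomib.

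Between the co-treatments, 10 of 13 mitochondrially encoded mRNAs were lower with nelfinavir than with ISRIB, and 2 higher. MT-CO3 was among the lower (-0.63 ± 0.09, adjusted p = 2.81e-06), and MT-ND6, the mRNA encoded on the other strand than the rest, was higher (1.91 ± 0.17, adjusted p = 1.59e-10), as it was in nelfinavir alone (1.20). Without a stated strand setting, reads counted for MT-ND6 cannot be told apart from reads of the opposite strand. Cytosolic ribosomal proteins were higher for 50 of 83 and lower for 1 (25 and 3 with totals without mitochondrially encoded genes), against 13.2% and 11.2% of all genes. The co-treatments differed for 6 of 10 chaperones and proteases, with HSPD1 at 7306 CPM with nelfinavir and 3561 CPM with ISRIB (1.04 ± 0.10, adjusted p = 2.52e-09). FASTKD5, which processes mitochondrial RNA, was higher with nelfinavir (0.75 ± 0.11, adjusted p = 5.82e-06). The tRNA synthetase genes had 1 call of 20, GATC (-0.82 ± 0.24, adjusted p = 0.01).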
